A study of Homo sapiens with 8 samples.

Results

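This is an account of 9 genes of blood vessel growth in A498 cells, taken by their symbols from the 59023 genes of the deposited count table. They are the neuropilins NRP1 and NRP2, the VEGF family ligands VEGFB, VEGFC and PGF, the VEGF receptors FLT1 and KDR, the angiogenesis inhibitor THBS1 and the endothelin precursor EDN1. VEGFA is not among them and is not reported here. A498 is a human line of clear cell renal cell carcinoma, and all 8 libraries are cultures of this line, so no donor or tumor varies between them. To learn which genes IL1 controls in renal cancer cells, the study compared 4 cultures that received IL1β at 30 ng/ml for 4 h (replicates 5 to 8) with 4 untreated cultures (replicates 1 to 4). All were grown in RPMI medium with 10% serum. The study describes A498 as VHL mutated, a genotype that all 8 libraries share. No transgene or engineered deletion is given for either group.

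VEGF ligands are secreted dimers that act mainly on endothelial cells. VEGFB and PGF bind the receptor FLT1, VEGFC binds FLT4 and KDR, and neuropilins are co-receptors that bind VEGF ligands and class 3 semaphorins at the cell surface, on endothelium, neurons and many carcinoma cells. THBS1 is a matrix glycoprotein that restrains endothelial growth, and EDN1 is cut to the vasoconstrictor endothelin-1.

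The libraries held 15409093 to 24000727 counts with IL1β and 16610473 to 27040505 counts without, so that 1 count stood for 0.0367 to 0.0735 CPM (counts scaled to a common library total, with TMM factors between libraries). On the leading principal component, with 42.7% of the variance, IL1β replicate 5 (score 102) and untreated replicate 1 (59.5) were set off from the remaining 6 libraries (-37.2 to -18.8). Of 5 genes known to answer IL1, NFKBIZ, CXCL8 and ICAM1 rose, by log2 fold changes of 3.27, 4.21 and 2.73 (edgeR adjusted p = 0.00566, 0.0318 and 0.0235). NFKBIA and TNFAIP3 did not pass (log2 fold changes of 1.78 and 2.61, edgeR adjusted p = 0.0902 and 0.0617). Of 10 markers of renal carcinoma epithelium, 8 averaged at least 1 CPM, and the lineage factor PAX8 lay at 365 to 519 CPM with IL1β and at 107 to 220 CPM without. The adhesion genes CDH1 and EPCAM were below 1 CPM on average.

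None of the 9 genes rose or fell with IL1β at an adjusted p under 0.05. Of the 9, 6 passed the filter on low counts and were compared by edgeR's quasi-likelihood test, and of these 6, 0 rose and 0 fell, where 0.929% and 0.0598% of all 15062 genes tested did so. At an unadjusted p under 0.05, NRP2 and VEGFC were higher with IL1β (2 of 6, where 6.23% of all genes were higher at that level) and no member was lower. By the tests run as alternatives, DESeq2, limma-voom and limma-trend, 1 of the 6 rose, NRP2 in each case. Of all 15062 genes tested, 423, 182 and 168 rose by these 3 tests. The median log2 fold change of the 6 was 0.49, against -0.020 over all genes tested. The members were chosen with earlier results of these data known, so their shares and median are descriptions only. The study set thresholds of a nominal p under 0.01 and an absolute log2 fold change above 1, on limma results. Applied here to the edgeR results, these thresholds were met by 2.60% of all genes and by no member. Counts made this way are not those of the study. PGF, FLT1 and KDR held 8, 29 and 21 counts over the 8 libraries and were not tested.

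NRP2 was more abundant than NRP1 per kb of exon in every library and had the smallest edgeR p of the 6 genes tested. Its hg38 position is chromosome 2, 205681990 to 205798133 on the plus strand, where a long noncoding gene is annotated on the other strand. The IL1β libraries had 1073, 1166, 1072 and 1082 CPM (replicates 5 to 8), against 694, 721, 468 and 602 CPM in the untreated libraries (replicates 1 to 4). Every IL1β library lay above every untreated one, as it did in 4.60% of the genes tested. The IL1β libraries lay close together, at 1098 ± 45.3 CPM, and the untreated libraries were more spread, at 621 ± 114 CPM (SD, n = 4 each). The log2 fold change was 0.82, a fold of 1.77 (standard error 0.17, 95% interval 0.44 to 1.20, unadjusted p = 7.3e-04, edgeR adjusted p = 0.0617), which is rank 178 of the 15062 genes by p. An exact permutation test of the mean log2(CPM + 0.5) gave 0.0286 as its two-sided p, which is the lower limit for 4 libraries against 4. The adjusted p fell below 0.05 with DESeq2 (9.9e-04), limma-voom (0.0472) and limma-trend (0.0494), and without both libraries that stood apart (0.0214 in edgeR), but was 0.0638 to 0.23 without any single library.

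NRP1, the other neuropilin, had a lower mean with IL1β. It lies on chromosome 10 from 33177492 to 33336262 on the minus strand, with a long noncoding gene on the other strand and a 7SL pseudogene, RN7SL398P, on its own. The IL1β libraries had 177, 238, 262 and 173 CPM, against 286, 355, 376 and 197 CPM in the untreated libraries. The groups overlapped, since untreated replicate 4 lay below IL1β replicates 6 and 7. The log2 fold change of -0.51 did not pass (standard error 0.24, 95% interval -1.05 to 0.021, edgeR adjusted p = 0.491), nor did the exact permutation test (two-sided p = 0.114).

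**Figure D1:**
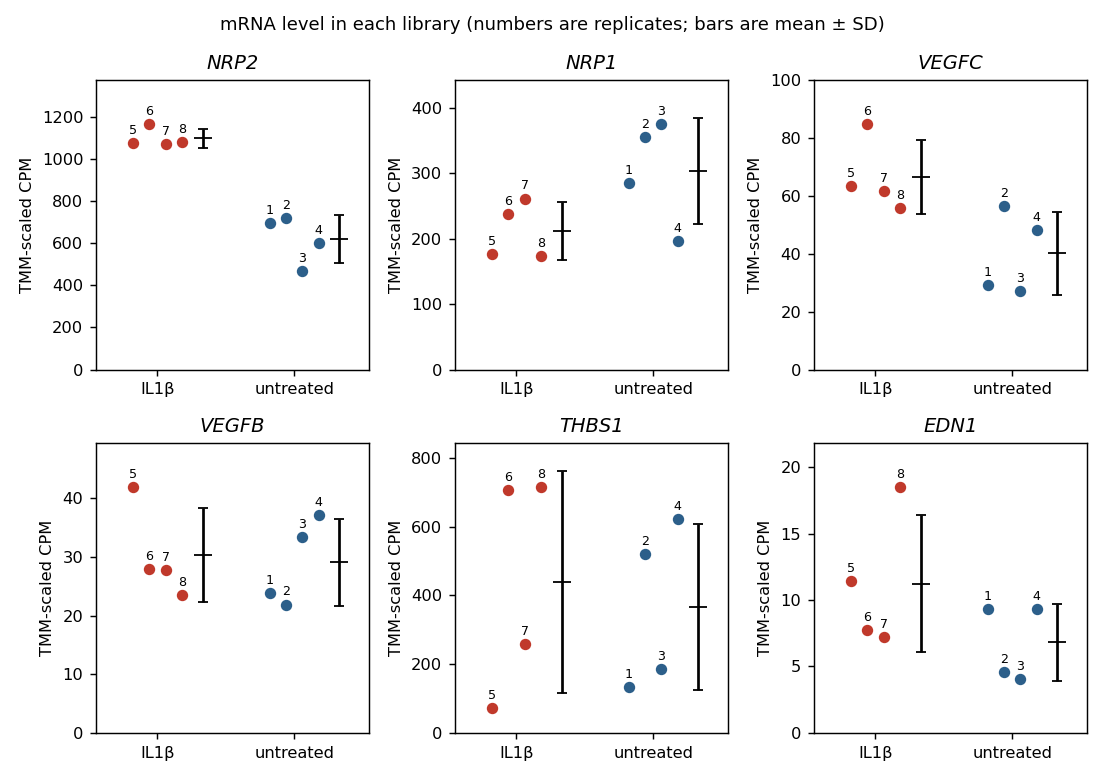
TMM-scaled CPM (y axis, from 0) of the 6 tested genes in each library, with IL1β libraries in red and untreated libraries in blue, replicate numbers above the points, and the mean ± SD of 4 libraries as a black bar. Only for NRP2 are the groups apart (1072 to 1166 CPM against 468 to 721 CPM), and THBS1 spreads widely within both groups.

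Because the neuropilins share ligands, their counts were also set against each other within each library, where no scaling factor between libraries enters. This ratio was chosen after the values of both genes were seen and was given no test. IL1β libraries held 6.06, 4.90, 4.10 and 6.25 NRP2 counts per NRP1 count, against 2.43, 2.03, 1.24 and 3.06 in untreated libraries. The lowest IL1β library was thus above the highest untreated library, and the means were 5.33 ± 1.02 and 2.19 ± 0.759 (SD, n = 4 each). The log2 ratio was higher by 1.34 with IL1β (standard error 0.31), and by 1.09 to 1.52 with any 1 library left out. Likewise, IL1β libraries held 1.52, 3.03, 2.21 and 2.37 VEGFC counts per VEGFB count, against 1.22, 2.58, 0.813 and 1.29 in untreated libraries. These overlapped, because untreated replicate 2 lay above 3 of the IL1β libraries.

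**Figure D2:**
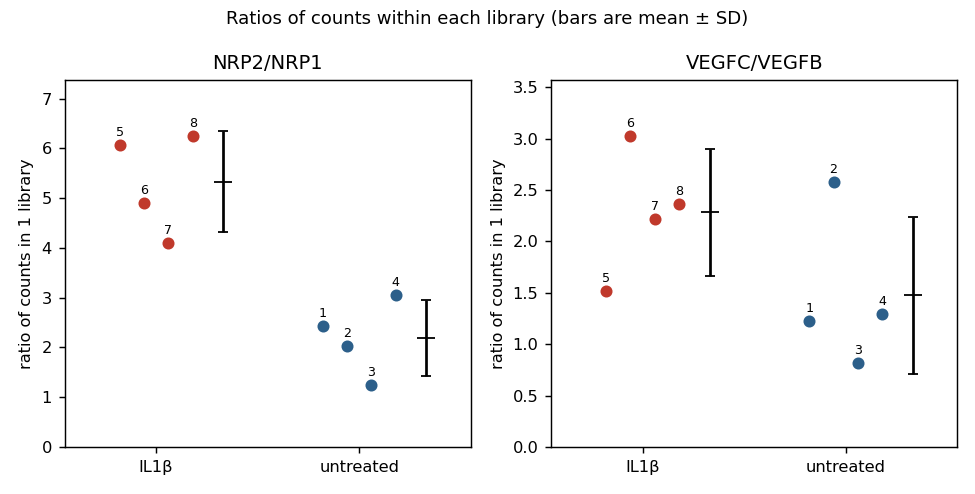
Ratio of raw counts within each library (y axis, from 0) for NRP2 over NRP1 and for VEGFC over VEGFB, IL1β in red, untreated in blue, with the mean ± SD of 4 libraries. The NRP2 over NRP1 ratio is 4.10 to 6.25 with IL1β and 1.24 to 3.06 without, while the VEGFC over VEGFB ratios of the groups overlap.

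Among the ligands, VEGFC, a growth factor of lymphatic vessels, was higher on average without passing the test. It lies on chromosome 4 from 176683538 to 176792922 on the minus strand, with a long noncoding gene on the other strand. Its levels were 63.5, 84.8, 61.7 and 55.7 CPM with IL1β, against 29.2, 56.4, 27.2 and 48.2 CPM without. The groups overlapped by a narrow margin, with untreated replicate 2 just above IL1β replicate 8. The log2 fold change was 0.72, a fold of 1.65 (standard error 0.27, 95% interval 0.13 to 1.32, unadjusted p = 0.0225, edgeR adjusted p = 0.336), and the exact permutation test gave a two-sided p = 0.0571. Over all alternatives the adjusted p of VEGFC was 0.22 to 0.718.

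The promoter letters of VEGFC and EDN1 are shown for their larger fold changes among the tested genes of secreted ligands. Neither fold change passed the test. IL1 receptors are known to signal through NF-kB, whose dimers bind sites that begin with GGG and end with CC. Whether NF-kB acts on these genes was not tested. Each run is the 250 bases before the RefSeq start (GRCh38.p14), at chr4:176792923-176793172 on the minus strand and chr6:12290111-12290360 on the plus strand, written 5′ to 3′ with matches in capitals. The motifs, searched on both strands, were GGG and CC with 5 bases of any kind between them, which 54.4% of 35116 RefSeq promoter windows of this length hold, and TATAAA, which 10.7% hold. Of 3 RefSeq starts of EDN1, the one at the GENCODE start is shown.
VEGFC: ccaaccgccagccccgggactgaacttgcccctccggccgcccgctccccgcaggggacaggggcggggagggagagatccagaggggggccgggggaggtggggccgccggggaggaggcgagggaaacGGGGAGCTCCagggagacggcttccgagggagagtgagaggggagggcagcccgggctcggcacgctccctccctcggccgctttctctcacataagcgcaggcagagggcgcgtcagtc
EDN1: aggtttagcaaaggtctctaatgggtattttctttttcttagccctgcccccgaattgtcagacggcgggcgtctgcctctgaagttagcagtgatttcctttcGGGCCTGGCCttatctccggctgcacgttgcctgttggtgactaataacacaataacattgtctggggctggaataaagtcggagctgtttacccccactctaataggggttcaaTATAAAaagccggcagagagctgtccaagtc
VEGFC held 1 match of the GGG to CC motif that begins 120 bases before the start and no TATAAA. EDN1 held 1 such match 146 bases and 1 TATAAA 31 bases before the start. The number of matches over both strands, overlapping ones included, was 8 for VEGFB, which showed no direction, 4 for NRP2, 5 for KDR, 2 for FLT1, 2 and 5 at the PGF starts, 0 for THBS1, and 2 and 0 at the other EDN1 starts. The windows of NRP2, VEGFB, FLT1 and the PGF start with 5 matches overlapped annotated exons. That of NRP2 lay wholly within the NRP2 span given above. The matches are letters in a window, and no binding was measured.

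VEGFB, a ligand of FLT1 that is known for its expression in heart and muscle, showed no direction. It lies on chromosome 11 from 64234584 to 64239264 on the plus strand, free of overlapping genes. It was at 41.9, 28.01, 27.8 and 23.5 CPM with IL1β, against 23.9, 21.9, 33.4 and 37.2 CPM without, and the ranges overlapped almost fully. The means were 30.3 ± 7.98 CPM and 29.1 ± 7.39 CPM (SD, n = 4 each). On the log2 scale VEGFB differed by 0.058 (standard error 0.24, 95% interval -0.49 to 0.61, edgeR adjusted p = 0.972), whose sign turned with the scaling and with single libraries. IL1β replicate 5, which stood apart, was the highest, and without it the log2 fold change was -0.14. PGF, placental growth factor, on chromosome 14 from 74941834 to 74955626, was close to absent, with 0, 4, 0 and 1 counts with IL1β, against 2, 0, 1 and 0 counts without. The ratio of its summed counts per depth was 2.05 (95% counting interval 0.399 to 13.2), so no difference was detectable at this depth.

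The receptors were near the limit of detection, below 1 CPM in every library. KDR, the main signaling receptor of endothelial cells, lies on chromosome 4 from 55078481 to 55125595 on the minus strand, with a long noncoding gene on the other strand. It had 0 counts in each of the 4 IL1β libraries, against 15, 1, 1 and 4 counts in the untreated libraries. Most of its counts thus came from untreated replicate 1, and 2 untreated libraries rest on a single count. The ratio of summed counts per depth was 0, with a 95% counting interval that reached up to 0.236. Set against a floor of 3 counts over the IL1β group (0.0414 CPM), the untreated level of KDR was 5.69 times the floor. Without untreated replicate 1, an alternative added after the data were seen, it was 2.34 times the floor. Neither value is a lower bound of the fold, since the untreated counts were taken as exact and spread between libraries did not enter. The single counts of untreated replicates 2 and 3 (0.0554 and 0.0420 CPM) lay below what 1 count was worth in IL1β replicates 5 and 8 (0.0735 and 0.0672 CPM), so the order of these libraries was not resolved at this depth. The exact permutation test gave KDR a two-sided p = 0.0286, its lower limit, which rests on this unresolved order. Without the filter on low counts edgeR gave an adjusted p = 0.316 over 31930 genes. In untreated replicate 1 the sum of 11 endothelial markers, 43.4 CPM, lay within the range of the other libraries, but most of it was EGFL7 (37.2 CPM). PECAM1, VWF, CLDN5 and EMCN peaked in untreated replicate 1, CLDN5 and EMCN on 2 and 1 counts. TEK, TIE1 and ESAM peaked in untreated replicate 4. EGFL7 peaked in IL1β replicate 5, ROBO4 and ERG in IL1β replicate 6 and CDH5 in IL1β replicate 8. The sum of 7 leukocyte markers was 21.3 CPM in untreated replicate 1, almost all from LYZ (19.5 CPM). That sum was 1.98 to 10.1 CPM with IL1β and 2.02 to 4.58 CPM in the other untreated libraries. The part of other cells in the KDR counts was not tested.

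FLT1, which binds VEGFB and PGF and also exists as a soluble form, lies on chromosome 13 from 28300346 to 28495145 on the minus strand. It had 0, 6, 1 and 4 counts with IL1β, against 2, 0, 1 and 15 counts without. The groups overlapped, and untreated replicate 4 held most of the untreated counts. The ratio of summed counts per depth was 0.751 (95% counting interval 0.321 to 1.68), and these intervals cover counting error only. The library with most FLT1 counts was also the highest for 7 fibroblast markers, which summed to 1326 CPM there. The fibroblast sums were 93.9, 478, 101 and 150 CPM with IL1β and 71.1, 48.9, 144 and 1326 CPM without, and 6 or 7 of the 7 markers had counts in every library. Of 11 endothelial markers, EGFL7 and TEK averaged at least 1 CPM, CDH5 had 0 to 8 counts a library, the summed level was 42.1 to 96.1 CPM with IL1β and 29.6 to 62.1 CPM without, and 1 to 5 markers had no count in a library. The part of other cells in these counts was not tested. In RNA from whole cultures, a smaller share of cells and less RNA per cell cannot be told apart.

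**Figure D3:**
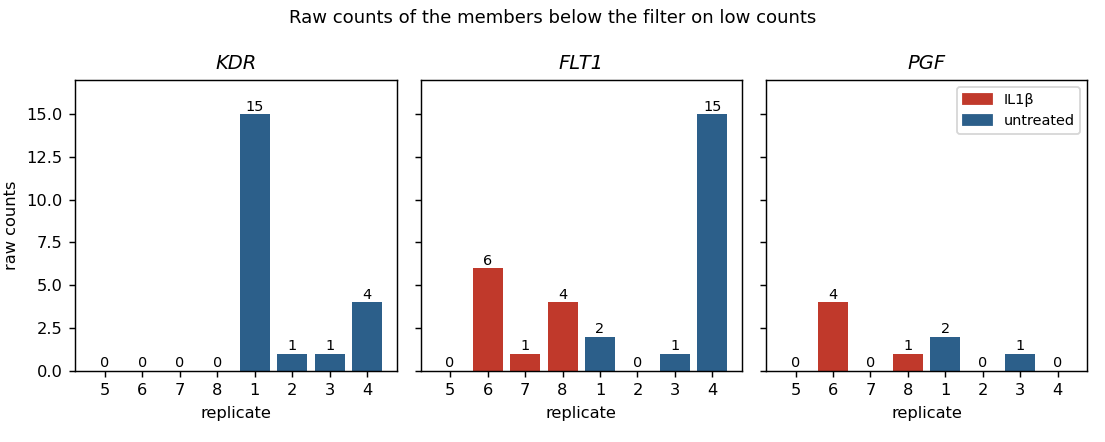
Raw counts (y axis, from 0) of KDR, FLT1 and PGF in each library (x axis, replicates 5 to 8 with IL1β in red, then 1 to 4 untreated in blue). KDR has no count with IL1β and 15 of its 21 counts in untreated replicate 1, and FLT1 has 15 of its 29 counts in untreated replicate 4.

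THBS1, thrombospondin-1, varied more between cultures of 1 group than any other tested member. It lies on chromosome 15 from 39581079 to 39599466 on the plus strand, where THBS1-IT1 overlaps it on the same strand and THBS1-AS1 and FSIP1 on the other. The IL1β libraries had 73.0, 708, 259 and 715 CPM, against 135, 522, 187 and 622 CPM in the untreated libraries. In each group 2 libraries were high (replicates 6 and 8 with IL1β, replicates 2 and 4 without) and 2 were low, and the highest library was 9.80 times the lowest. The coefficient of variation was 73.8% with IL1β and 65.9% without, against 4.13% and 18.4% for NRP2. The log2 fold change was 0.26 (standard error 0.69, 95% interval -1.29 to 1.81, edgeR adjusted p = 0.946). Both libraries that stood apart on the first component, IL1β replicate 5 and untreated replicate 1, were the lowest for THBS1 in their group. The sign turned to -0.017 without untreated replicate 1, and to -0.074 and -0.078 without IL1β replicates 6 or 8.

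EDN1, the precursor of endothelin-1, was low and uneven. It lies on chromosome 6 from 12290361 to 12297194 on the plus strand, and its start follows directly on the promoter letters given above. It was at 11.5, 7.76, 7.24 and 18.5 CPM with IL1β, against 9.35, 4.60, 4.03 and 9.31 CPM without. IL1β replicates 5 and 8 lay above all untreated libraries, and IL1β replicates 6 and 7 lay within their range. EDN1 had a log2 fold change of 0.71, a fold of 1.64 (standard error 0.40, 95% interval -0.17 to 1.60, edgeR adjusted p = 0.59), and the exact permutation test gave a two-sided p = 0.2. Without IL1β replicate 8 this log2 fold change was 0.37.

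**Figure D4:**
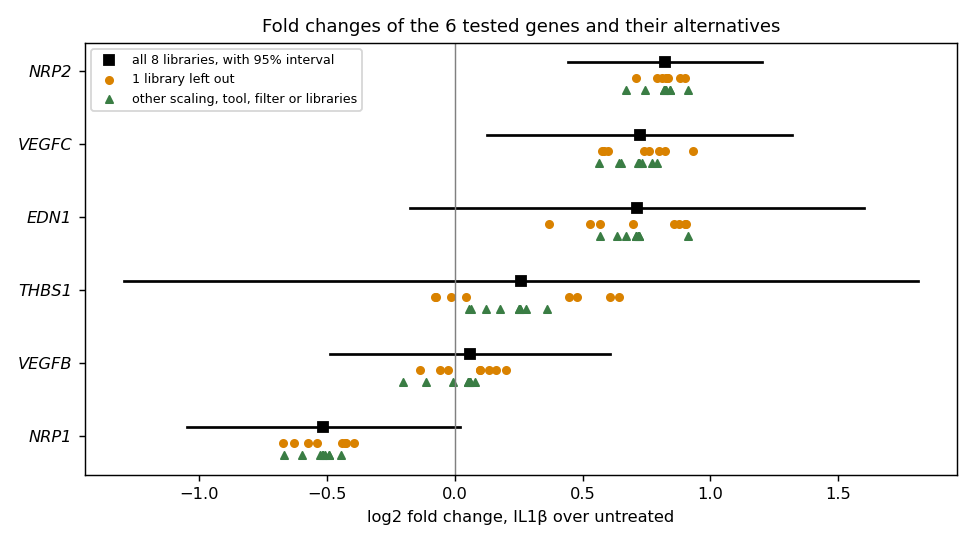
Log2 fold change of IL1β over untreated (x axis) for the 6 tested genes. Black squares and lines are the edgeR estimate from all 8 libraries with its 95% interval, orange points leave out 1 library each, and green triangles are the other scalings, tools, filters and library choices. NRP2, VEGFC and EDN1 stay above 0 in every alternative and NRP1 below 0, while the points of VEGFB and THBS1 lie on both sides of 0.

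Per kb of annotated exon the members were ranked within each group, as levels and with no test. With IL1β the order was NRP2 at 79.0 ± 3.26 CPM per kb, THBS1 at 47.9 ± 35.4, VEGFC at 25.4 ± 4.86, NRP1 at 18.4 ± 3.84, VEGFB at 15.4 ± 4.05 and EDN1 at 5.52 ± 2.55 CPM per kb (SD, n = 4). Without IL1β it was NRP2 at 44.7 ± 8.22 CPM per kb, THBS1 at 40.0 ± 26.4, NRP1 at 26.3 ± 7.01, VEGFC at 15.4 ± 5.48, VEGFB at 14.8 ± 3.75 and EDN1 at 3.35 ± 1.43 CPM per kb. VEGFC and NRP1 thus stood in opposite order in the groups, though their ranges overlapped in both (21.3 to 32.4 against 15.01 to 22.7 CPM per kb with IL1β, and 10.4 to 21.6 against 17.1 to 32.6 CPM per kb without). NRP2 and THBS1 also overlapped in both groups, as did NRP1 and VEGFB. The range of EDN1 (3.56 to 9.08 CPM per kb with IL1β and 1.98 to 4.60 without) lay below those of the 5 others, except that it overlapped the range of THBS1 with IL1β (7.97 to 78.0 CPM per kb). PGF, FLT1 and KDR were below 0.1 CPM per kb throughout. The lengths are those of GENCODE 44, which may differ from the annotation behind the counts, and counts per gene do not separate soluble from membrane forms of NRP1, NRP2 or FLT1.

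Around the 9 genes, 50 further genes of 5 pathway lists were measured. These lists, too, were chosen with earlier results of these data known. Of the 50 genes, 34 were tested, of which 0 rose and 0 fell in edgeR. At an unadjusted p under 0.05 there were 5 of 34 (14.7%), against 10.8% of all genes tested, and the median log2 fold change was -0.079, against -0.020. These 5, named after their values were seen, were PLXNA2, CD47, TYMP and the vasodilator peptide gene ADM, higher with IL1β, and PLXNA4, lower. Among 12 class 3 semaphorins and plexins, the ligands and partners of neuropilins, 9 were tested and none passed. The most abundant were PLXND1, at 221 ± 22.8 CPM with IL1β and 259.7 ± 80.4 CPM without, and SEMA3C, at 188 ± 72.7 and 138 ± 44.3 CPM (SD, n = 4 each). PLXNA2 was at 26.2 ± 5.38 CPM with IL1β and 11.7 ± 6.31 CPM without (log2 fold change 1.16, edgeR adjusted p = 0.269). Of 8 other VEGF and PDGF family genes (VEGFD, FLT4, PDGFA, PDGFB, PDGFC, PDGFD, PDGFRA and PDGFRB) 6 were tested and none passed. VEGFA was not in this list. PDGFC was at 55.1 ± 13.2 CPM with IL1β and 68.7 ± 27.99 CPM without, and PDGFA at 41.9 ± 17.7 and 47.8 ± 18.6 CPM. FLT4, the receptor of VEGFC, held 44 counts in all and was not tested.

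In the endothelin pathway 2 of 6 genes were tested, ECE1, whose protease releases endothelin-1, and EDN2. ECE1 was at 432 ± 166 CPM with IL1β and 295 ± 102 CPM without, and EDN2 at 20.8 ± 12.8 and 12.4 ± 7.74 CPM (SD, n = 4 each), with edgeR adjusted p-values of 0.604 and 0.702. The receptor genes EDNRA and EDNRB held 63 and 17 counts over the 8 libraries. Of 6 thrombospondin relatives and receptors 4 were tested and none passed. CD47, a receptor of THBS1, was at 230.5 ± 60.9 CPM with IL1β and 140.1 ± 39.4 CPM without (log2 fold change 0.72, unadjusted p = 0.0223, edgeR adjusted p = 0.334), and THBS3 at 37.4 ± 11.0 and 35.5 ± 9.67 CPM. Of 18 other regulators 13 were tested and none passed, with COL18A1, the collagen that yields endostatin, at 409 ± 235 and 325 ± 135 CPM, and FGF2 at 244 ± 47.4 and 299.7 ± 62.5 CPM. TYMP, thymidine phosphorylase, had 192, 134, 106 and 125 CPM with IL1β, against 68.0, 29.8, 45 and 71.6 CPM without. The groups did not overlap, and the log2 fold change of TYMP was 1.38 (standard error 0.30, edgeR adjusted p = 0.0772).

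For the 5 members above 10 CPM on average, the 3 genes with the most alike pattern over the 8 libraries were taken among 9296 genes, by the root mean square difference of centred log2 CPM. For NRP2 they were DGKG (0.089), JCAD (0.10) and SRGN (0.12). For NRP1 they were TMEM97 (0.087), CROT (0.13) and PBX3 (0.14). For VEGFC they were CD83 (0.19), PPIF (0.20) and ISOC1 (0.21), and for VEGFB they were PRDX2 (0.080), CDC34 (0.091) and TEX264 (0.093). For THBS1 they were ITGB6 (0.36), ROR1 (0.38) and TGFB2 (0.44). The measure grows with a member's own spread, and the SD of centred log2 CPM was 1.24 for THBS1, against 0.34 to 0.56 for the other 4 members. ITGB6 had 5.95, 25.4, 18.9 and 43.1 CPM with IL1β, against 7.26, 26.7, 12.8 and 30.0 CPM without, and was low in the same libraries, replicates 5 and 1, as THBS1. With 8 libraries and this many genes, likeness is a description only.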

How the data were processed

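RNA of 4 IL1β-treated and 4 untreated A498 cultures was sequenced from stranded libraries. The authors aligned the trimmed reads with STAR (2.5.3a, genome build hg38) and deposited raw counts per gene made with featureCounts. Its version, strand setting and gene annotation: not given in the sources used here. Without the strand setting, reads of a gene and of its antisense partner may not be separated. Of 59050 entries, 27 that carry a date in place of a symbol (0.197% to 0.236% of a library) were left out.

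The comparison was run in edgeR 4.0.16 under R 4.3.3 (filterByExpr, TMM factors, quasi-likelihood F test on treatment alone, Benjamini-Hochberg adjustment over all 15062 genes tested). The study used limma, which was run as an alternative (3.58.1), as was DESeq2 1.42.0. Exact permutation tests of 9 members used log2(CPM + 0.5). Other alternatives were RLE and upper-quartile factors, library size only, no filter, 1 CPM in 4 libraries, libraries thinned to 15409093 counts, each library left out, and the pair that stood apart left out. No pair of libraries looked like a repeat (lowest chi-square per gene 13.4). The study speaks of experimental pairs, but the labels do not say how the 4 libraries of a group arose. The p-values therefore set each group difference against the spread between these libraries. Any variation between experiments stays in that spread, because no pair term entered.

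The members and gene lists were chosen with earlier results of these data known. Named genes were the 9 members, from each list those that passed or else the 2 most abundant, 5 IL1 response genes and the 3 genes nearest to each member above 10 CPM. Other genes are said to be chosen after their values were seen. Promoter letters are those of RefSeq (GRCh38.p14), which had entries for 8 of the 9 members, and positions and exon lengths those of GENCODE 44.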

Additional observations from a re-analysis of the deposited data

Results flagged for a closer look

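Of 17 groups of 4 libraries tested for the 9 genes (KDR with IL1β was at 0 throughout), 2 held a library far from its fellows. Chance gives this pattern in about 5% of groups of normally distributed values. That share does not apply to genes with counts near 0, such as FLT1. NRP2 was at 1166 CPM in IL1β replicate 6, against 1072 to 1082 CPM in the other IL1β libraries, which lay very close together. FLT1 was at 0.747 CPM in untreated replicate 4 (15 counts), against 0 to 0.0734 CPM in the other untreated libraries, and that library also had the highest sum of fibroblast markers.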

How the results depend on the processing

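The count of members that rose, 0 in edgeR with all libraries, was 1 (NRP2) with DESeq2, limma-voom, limma-trend and without untreated replicate 1 and IL1β replicate 5 together, and 0 to 0 with any single library left out. No member fell in any alternative. Of the genes of the 5 pathway lists, 1 rose with DESeq2 (TYMP), without the filter (TYMP) and without both libraries that stood apart (ADM), and none fell. The causes were not tested. The signs of NRP1, NRP2, VEGFC and EDN1 held in all 18 alternatives. The log2 fold change of VEGFB was -0.0081 with upper-quartile factors, -0.11 with library size only, -0.20 without both libraries that stood apart, and -0.14 to 0.20 with single libraries left out. That of THBS1 was -0.078 to 0.64 with single libraries left out. With library size only, the median over all genes was -0.18 and NRP2 was at 0.67 (edgeR adjusted p = 0.127). Over all genes, 140 rose and 9 fell in edgeR, 423 and 109 in DESeq2, 182 and 12 in limma-voom, and 168 and 12 in limma-trend. These numbers were 116 and 15 with upper-quartile factors, 141 and 5 in thinned libraries, and 230 and 9 without the filter. They were 378 and 54 without both libraries that stood apart, and 38 to 218 and 0 to 12 with single libraries left out. No paired analysis was possible because the study speaks of experimental pairs but the labels do not say which treated and untreated cultures belong together. Members with few counts (PGF, FLT1 and KDR) are limited by depth.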
